A study of Mus musculus with 60 samples.

Results

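The axon guidance ligand and receptor genes described here were 69 of the 21887 protein-coding genes of the mouse RefSeq table (assembly GRCm38.p6). They were chosen by gene symbol alone: the semaphorins, plexins, ephrins, Eph receptors, Slits, Robo receptors, netrins and Unc5 receptors, with the neuropilins Nrp1 and Nrp2 and the netrin receptor Dcc. By family they comprised 20 semaphorins, 9 plexins, 2 neuropilins, 8 ephrins, 14 Eph receptors, 3 Slits, 4 Robo receptors, 4 netrins and 5 netrin receptors, that is 35 ligands and 34 receptors. The study profiled chromatin in L4 to L6 dorsal root ganglia (DRG) of C57BL/6 mice aged 6 to 8 weeks, 24 hours after 1 of 4 operations. The peripheral injury was sciatic nerve axotomy (SNA), with sham sciatic nerve surgery (Sham) as its control, and the central injury was spinal cord dorsal column axotomy (DCA), with laminectomy (Lam) as its control. No genotype or transgene distinguished the groups. Chromatin immunoprecipitation sequencing (ChIP-seq) covered H3K9ac and H3K27ac, which are acetylated lysines of histone H3, and H3K27me3, a trimethylated lysine of the same histone, on 2 samples per mark and operation with 10 mice pooled per sample. ATAC-seq, which reads open chromatin by transposase insertion, covered 3 samples of 1 mouse per operation.

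Guidance cues are secreted or membrane-bound proteins that steer a growth cone by attraction or repulsion. Semaphorins signal through plexins, with neuropilins as co-receptors for most of the secreted class 3 members, ephrins bind Eph receptor tyrosine kinases on neighbouring cells, Slits bind Robo receptors, and netrins bind Dcc or the Unc5 receptors. These genes pattern the projections of sensory neurons in development, many remain expressed in the adult ganglion or in its glia and vessels, and several are known as inhibitors of regrowth in scar tissue. H3K9ac and H3K27ac mark active promoters, H3K27ac also marks active enhancers, and H3K27me3 is the mark left by Polycomb repressive complexes.

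The data were 16 lists of peaks, 1 for each assay and operation, so each value below is a count in a pooled list with no replicate error and no test. Intervals given are 95% intervals for counting error only. A peak was assigned to a gene when it overlapped the gene body or 10 kb on either side, and a promoter peak lay within 1 kb of a listed transcription start, which the start table gave for 59 of the 69 genes. Dcc, Efnb3, Ntn1, Plxna1, Plxna4, Sema3b, Sema3f, Sema6a, Slit1 and Unc5d had no listed start and entered only the counts over gene windows. For Robo1, Sema3a and Sema4d the listed start lay more than 10 kb inside the gene model, so their promoter calls refer to an internal start. The windows of Efna3 and Efna4 overlapped, as did those of Robo3 and Robo4, and 21 of the 69 windows held the start of another protein-coding gene.

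Lists differed in size between operations, from 50332 to 89647 peaks for H3K9ac, 43803 to 75824 for H3K27ac, 90011 to 154055 for H3K27me3 and 153556 to 174605 for ATAC, so counts are set beside the same count over all genes. The number of reads behind each list was not known from the files. ATAC peaks lay at 5, 6, 6 and 6 of 6 sensory neuron marker starts in the Sham, SNA, Lam and DCA lists, and H3K9ac at 3, 4, 4 and 4 of 4 starts of satellite glia and Schwann cell markers, whereas none of 5 macrophage marker starts had an acetylation peak in any list. H3K9ac lay at only 1, 1, 2 and 2 of the 6 neuronal starts. A ganglion is a mixture of cells, and fewer cells of a type cannot be told apart from less signal per cell.

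Sequences upstream of 4 starts are printed because these starts span the promoter states found among the guidance genes. Each is the 250 bases before the listed start in RefSeq GRCm38.p6, written 5′ to 3′ on the gene's strand, with every match to the GC box GGGCGG on either strand in capitals. The Nrp2 stretch is chr1:62703067-62703316 on the plus strand, that of Epha7 is chr4:28812881-28813130 on the plus strand, that of Unc5b is chr10:60831582-60831831 on the minus strand and that of Epha3 is chr16:63864176-63864425 on the minus strand. Nrp2 had both acetylation marks at its start in every list. Epha7 carried the strongest ATAC peak of any guidance gene in every list and had H3K9ac at its start in the DCA list alone. Unc5b also had H3K9ac in the DCA list alone, and Epha3 was open and carried H3K27me3 in every list with no acetylation in any.
Nrp2: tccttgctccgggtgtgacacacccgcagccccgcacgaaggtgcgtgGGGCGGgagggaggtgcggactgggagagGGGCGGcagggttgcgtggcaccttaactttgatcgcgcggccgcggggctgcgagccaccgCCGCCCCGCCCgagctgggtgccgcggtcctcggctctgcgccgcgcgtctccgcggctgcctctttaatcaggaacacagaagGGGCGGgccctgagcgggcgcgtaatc
Epha7: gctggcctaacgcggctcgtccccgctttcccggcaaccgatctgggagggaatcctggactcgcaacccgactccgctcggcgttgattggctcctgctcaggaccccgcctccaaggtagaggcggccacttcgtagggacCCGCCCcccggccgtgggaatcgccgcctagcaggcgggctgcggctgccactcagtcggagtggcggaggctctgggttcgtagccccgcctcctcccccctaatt
Unc5b: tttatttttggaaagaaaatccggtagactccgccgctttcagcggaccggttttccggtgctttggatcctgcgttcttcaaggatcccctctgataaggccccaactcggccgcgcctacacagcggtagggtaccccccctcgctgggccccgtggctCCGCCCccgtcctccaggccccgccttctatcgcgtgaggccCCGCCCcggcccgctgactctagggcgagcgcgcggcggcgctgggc
Epha3: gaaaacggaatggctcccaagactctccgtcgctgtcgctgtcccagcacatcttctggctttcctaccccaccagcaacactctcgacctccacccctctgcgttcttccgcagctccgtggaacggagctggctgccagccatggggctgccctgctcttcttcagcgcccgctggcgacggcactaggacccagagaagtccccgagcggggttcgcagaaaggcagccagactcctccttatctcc
Nrp2 had 5 GC-box matches (the capitals include a stretch where matches overlap), Unc5b 2, Epha7 1 and Epha3 0. At least 1 match lay upstream of 44 of the 59 guidance genes, or 74.6%, against 45.8% of all 17492 genes with a listed start, and the median GC content was 64.4% against 55.6%. The AP-1 motif TGANTCA, searched on both strands like the others, was found upstream of Sema4c, Sema4d and Sema6b only, or 5.08% against 7.19% of all genes. The cyclic AMP response element TGACGTCA was found upstream of Epha2 only, or 1.69% against 2.20%. These windows describe sequence and do not show binding.

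Nearly every guidance promoter was open after every operation, while acetylation split them. An ATAC peak lay at the start in all 4 lists for 53 of the 59 genes, or 89.8%, against 61.9% of all genes, and Sema3a, the class 3 repellent whose listed start is internal, was the only gene with none. Both acetylation marks and ATAC were present in every list at 19 starts, or 32.2% against 28.9% of all genes. H3K9ac was found at 33, 36, 35 and 51 of the 59 starts in the Sham, SNA, Lam and DCA lists, that is 55.9%, 61.0%, 59.3% and 86.4%, where all genes had 50.4%, 51.9%, 51.6% and 59.9%. H3K27ac was found at 30, 36, 38 and 30, or 50.8%, 61.0%, 64.4% and 50.8%, where all genes had 40.5%, 52.1%, 51.5% and 43.6%. Guidance starts without H3K27ac in any list numbered 17, or 28.8% against 42.9%, and their upstream GC content had a median of 63.6% where the corresponding genes overall had 47.6%.

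**Figure D1:**
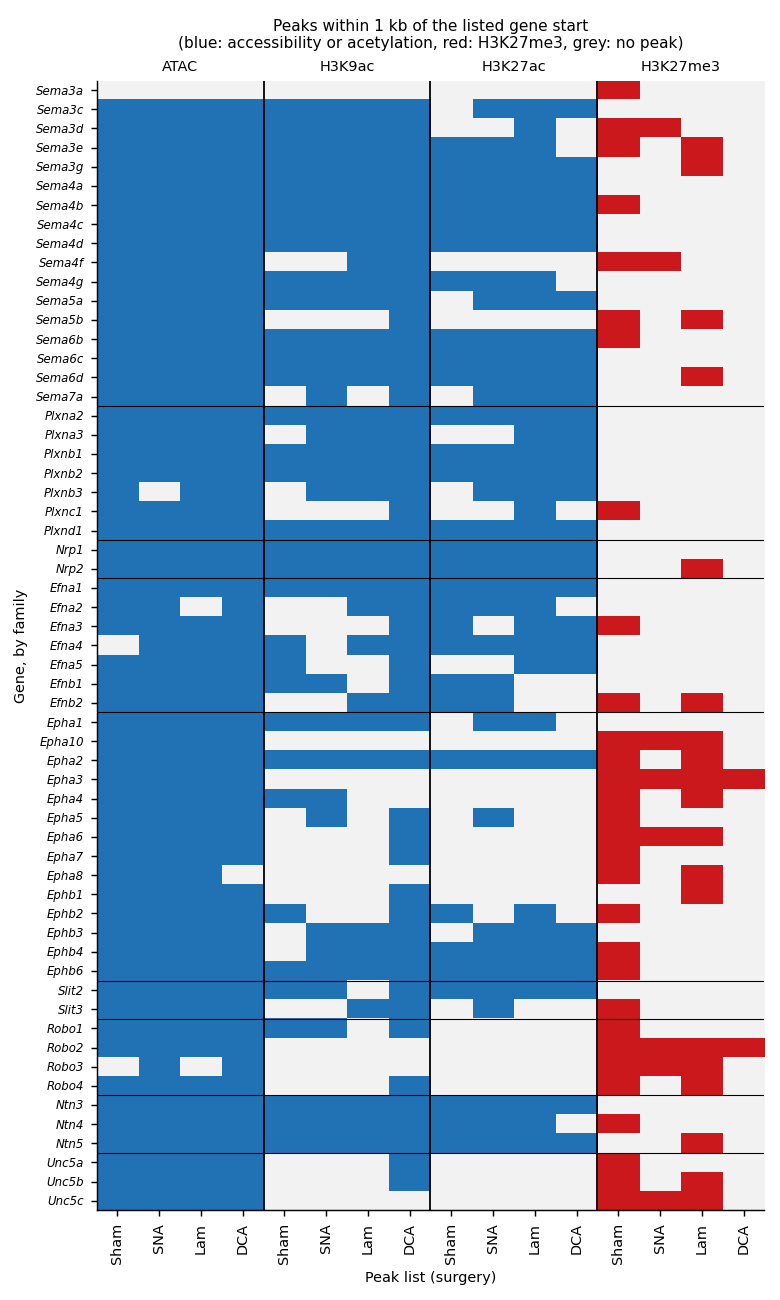
Presence of a peak within 1 kb of a listed start for the 59 guidance genes with a listed start (rows, by family) in the 16 lists (columns). Blue cells mark H3K9ac, H3K27ac and ATAC peaks and red cells H3K27me3 peaks; ATAC columns are nearly full, H3K9ac is fullest in the DCA column (51 of 59) and H3K27me3 emptiest there (2 of 59).

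Ligands and receptors differed in these promoter counts. H3K27ac was absent from all 4 lists at 3 of 29 ligand starts, those of Sema3a, Sema4f and Sema5b (10.3%), and at 14 of 30 receptor starts (46.7%). Over all genes this share was 42.9%, so the receptors lay near it and the ligands below it. H3K9ac was present at 21, 20, 22 and 28 ligand starts in the Sham, SNA, Lam and DCA lists and at 12, 16, 13 and 23 receptor starts. ATAC peaks lay at 27, 28, 27 and 28 ligand starts and at 29 of 30 receptor starts in each list. The counts for the 2 roles thus lay apart in acetylation and close together in ATAC, but the receptor families were not alike. The 14 receptor starts without H3K27ac all belonged to Eph, Robo and Unc5 genes. Of 7 plexin starts, 4, 5, 7 and 6 had H3K27ac in the Sham, SNA, Lam and DCA lists, as did 2 of 2 neuropilin starts in each. Of 14 Eph receptor starts 4, 6, 6 and 4 had it, and 0 of the Robo and Unc5 starts in any list.

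H3K9ac promoter peaks were gained at guidance genes after dorsal column axotomy. The DCA list had a peak where the Lam list had none at 16 of 59 starts (27.1%, against 8.89% of all genes), and 0 starts went the other way (0.572% of all genes). The gained starts belonged to Eph receptors (Epha5, Epha6, Epha7, Ephb1, Ephb2), ephrins (Efna3, Efna5, Efnb1), semaphorins (Sema5b, Sema7a) and their receptor Plxnc1, the Slit and Robo genes Slit2, Robo1 and Robo4, and the netrin receptors Unc5a and Unc5b. All 16 were already open in the Lam list, as were 56 of the 59 guidance starts and 1359 of the 1555 starts that gained H3K9ac over all genes. Among starts open in Lam without H3K9ac, 16 of 22 guidance genes gained it (72.7%, 95% interval 51.8 to 86.8), against 41.4% of all such genes. At 9 of the 16, the peak was in the DCA list alone: Efna3, Epha6, Epha7, Ephb1, Plxnc1, Robo4, Sema5b, Unc5a and Unc5b (15.3% of guidance starts, against 4.05% of all). Efna5, Efnb1, Ephb2, Robo1 and Slit2 had the peak in the Sham list and not in Lam, and Epha5 and Sema7a had it in the SNA list.

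The DCA list was the largest of the H3K9ac lists, and 99.0% of its peaks passed a q-value of 0.05 against 82.0% of the Lam list. When both lists were cut to the same number of strongest peaks, 12 starts gained H3K9ac (20.3%, against 6.29% of all genes) and 3 lost it (5.08%, against 1.84%). The part of list size in the remaining gains was not tested. In the same comparison H3K9ac peak numbers were higher in DCA at 3 of 5 counted markers of endothelial cells and fibroblasts (Cdh5, Col1a1, Col3a1). Over all counted genes 34.5% were higher, and 5 markers are too few to tell a shift of these cells from that share. The part of these cells in the guidance gene counts was not tested.

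Sciatic nerve axotomy was compared with Sham in the same way. Epha5, Ephb3, Ephb4, Plxna3, Plxnb3 and Sema7a gained a peak relative to Sham, 6 of 59 or 10.2% against 5.13% of all genes. Efna4, Efna5 and Ephb2 lost theirs, 5.08% against 3.61%. With lists of equal size 6 starts gained H3K9ac (10.2%, against 3.44%) and 7 lost it (11.9%, against 8.20%). Gains and losses were thus close in number after SNA, unlike the 12 and 3 after DCA (6.29% and 1.84% of all genes). With only peaks of -log10 q at least 1.3 there were 13 gains of 59 starts (9.14% of all genes), and within 5 kb of a start 2 (3.39%, against 5.08%). Among open starts without H3K9ac in Sham, 6 of 24 gained it after SNA (25.0%, interval 12.0 to 44.9), close to the 21.7% over all genes. The controls also differed from each other: relative to Sham, the Lam list had 8 gained starts (13.6%, against 5.31%) and 6 lost starts (10.2%, against 4.14%). Because Lam is also the control of DCA, these differences enter the comparison of DCA with Lam.

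After SNA 8 starts gained H3K27ac (13.6%, against 13.7% of all genes), namely Epha1, Epha5, Ephb3, Plxnb3, Sema3c, Sema5a, Sema7a and Slit3, and 2 lost it, Efna3 and Ephb2 (3.39%, against 2.09%). With lists of equal size the balance turned, to 5 gains (8.47%, against 10.9%) and 6 losses (10.2%, against 4.05%). After DCA 0 starts gained it (2.34% of all genes) and 8 lost it (13.6%, against 10.2%): Efna2, Epha1, Ephb2, Ntn4, Plxnc1, Sema3d, Sema3e and Sema4g. Both acetylation marks were gained after SNA at Epha5, Ephb3, Plxnb3 and Sema7a, and both were lost at Ephb2, an Eph receptor for B-type ephrins. At Ephb3, another receptor of the B class, and at Plxnb3, a plexin for class 5 semaphorins, both marks were also present in the Lam and DCA lists, so Sham alone lacked them. Sema7a, the membrane-anchored semaphorin that binds Plxnc1, had H3K27ac at its start in SNA, Lam and DCA, and H3K9ac in SNA and DCA. The start of Epha5 had H3K27ac in the SNA list alone.

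ATAC calls changed at few guidance starts. Efna4 and Robo3 gained an ATAC peak after SNA (3.39%, against 5.04% of all genes) and Plxnb3 lost one (1.69%, against 2.98%). Efna2 and Robo3 gained one after DCA (3.39%, against 4.60%) and Epha8 lost one (1.69%, against 3.37%). The strongest ATAC peak in a guidance gene lay over the start of Epha7, an Eph receptor for A-type ephrins, in all 4 lists. Its enrichment in the authors' files was 10.5, 11.1, 11.0 and 10.7 in the Sham, SNA, Lam and DCA lists, each among the 80 strongest of its list.

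H3K27me3 was found at guidance starts more often in the control lists than in the injury lists. It lay at 30, 8, 19 and 2 of 59 starts in the Sham, SNA, Lam and DCA lists, where all genes had 19.6%, 14.8%, 22.1% and 7.13%. In the Sham list it was present at 28 of 56 open guidance starts (50.0%, against 20.1% of all open starts) and at 15 of 20 that were open and unacetylated (75.0%, interval 53.1 to 88.8, against 47.5%). After SNA 22 starts lost it (37.3%, against 11.0% of all genes) and 0 gained it (6.23%). With a 5 kb window 13 of 59 starts lost it after SNA (against 16.3% of all genes) and 6 gained it (10.2%, against 10.2%), so the absence of gains was limited to the 1 kb window. With lists of equal size 17 lost it (28.8%, against 9.90%) and 0 gained it. After DCA 17 lost it (28.8%, against 17.2%) and 0 gained it (2.22%). Among starts that had it in the control, 22 of 30 lost it after SNA (73.3%, interval 55.6 to 85.8, against 56.1%) and 17 of 19 after DCA (89.5%, interval 68.6 to 97.1, against 77.8%).

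Losses of the same kind separated the controls: Lam had lost H3K27me3 at 16 starts relative to Sham (27.1%, against 7.64%) and gained it at 5 (8.47%, against 10.2%), and 14 starts carried it in the Sham list alone (23.7%, against 5.77%). The peaks were also weak. At most 1.31% of any H3K27me3 list passed a q-value of 0.05, and only 3 such peaks fell in guidance windows. They lay in the body of Robo2 (chr16:75432729-75434008, mm10, Sham, enrichment 2.24), in the body of Sema4d (chr13:51781790-51784196, Sham, enrichment 2.03) and in the flank of Slit1 (chr19:41755147-41756720, Lam, enrichment 2.54). Epha3 and Robo2, a receptor for A-type ephrins and a Slit receptor, were the only guidance genes with H3K27me3 at a start in all 4 lists. That was 3.39% of guidance starts, near the 2.68% of all genes. In peak number, H3K27me3 was lower after DCA at 31 of the 53 guidance genes with at least 3 peaks in either list (58.5%, against 56.9% of all genes) and higher at 1, Sema3c (1.89%, against 2.53%). After SNA it was higher at 2 of 47 (4.26%, against 14.4%) and lower at 5 (10.6%, against 15.1%), a peak number being called when it differed by at least 3 peaks and 2-fold. Unc5b, a netrin receptor on vessels and neurons, had 9, 9, 13 and 0 H3K27me3 peaks in its window in the Sham, SNA, Lam and DCA lists, and Unc5a 11, 6, 20 and 0. Absence from the DCA list was common, since only 39 of 69 guidance genes and 10394 of all 21887 genes had an H3K27me3 peak there. Unc5a and Unc5b also gained an H3K9ac promoter peak relative to Lam, and a link between the 2 changes was not tested.

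Over whole gene windows, which cover 14.5 Mb, the guidance genes held 446, 601, 366 and 665 H3K9ac peaks, 325, 591, 480 and 352 H3K27ac peaks, 642, 731, 842 and 363 H3K27me3 peaks and 1097, 1100, 1104 and 1133 ATAC peaks in the Sham, SNA, Lam and DCA lists. Every guidance gene had at least 1 ATAC peak in every list. Relative to all genes, the log2 change in peak number after SNA was -0.11 (95% interval -0.29 to 0.06) for H3K9ac, 0.05 (-0.15 to 0.24) for H3K27ac and -0.22 (-0.34 to -0.10) for ATAC. After DCA it was 0.07 (-0.11 to 0.25), 0.07 (-0.13 to 0.27) and 0.03 (-0.09 to 0.15). With all peaks, the largest shift relative to all genes in these marks was between the controls, where Lam against Sham gave -0.29 (-0.49 to -0.09) for H3K9ac. Peaks whose -log10 q reached 5 were few for H3K9ac, with 5, 40, 27 and 294 in guidance windows in the Sham, SNA, Lam and DCA lists. Counting only these, the values became 0.73 (-0.65 to 2.10) for Lam against Sham, 1.14 (-0.20 to 2.48) after SNA and 0.94 (0.37 to 1.51) after DCA. The Lam value had the opposite sign, but it rests on 5 Sham peaks and its interval included 0, so its direction is not settled. The ranking seen with all peaks was not kept. H3K27me3 gave 0.08 (-0.07 to 0.23) after SNA and -0.18 (-0.36 to -0.00) after DCA, an interval just below 0. With all peaks, the intervals for both acetylation marks included 0 after each injury. The guidance genes held nearly the same number of ATAC peaks in SNA as in Sham, while the number over all genes rose by 0.22 on the log2 scale.

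**Figure D2:**
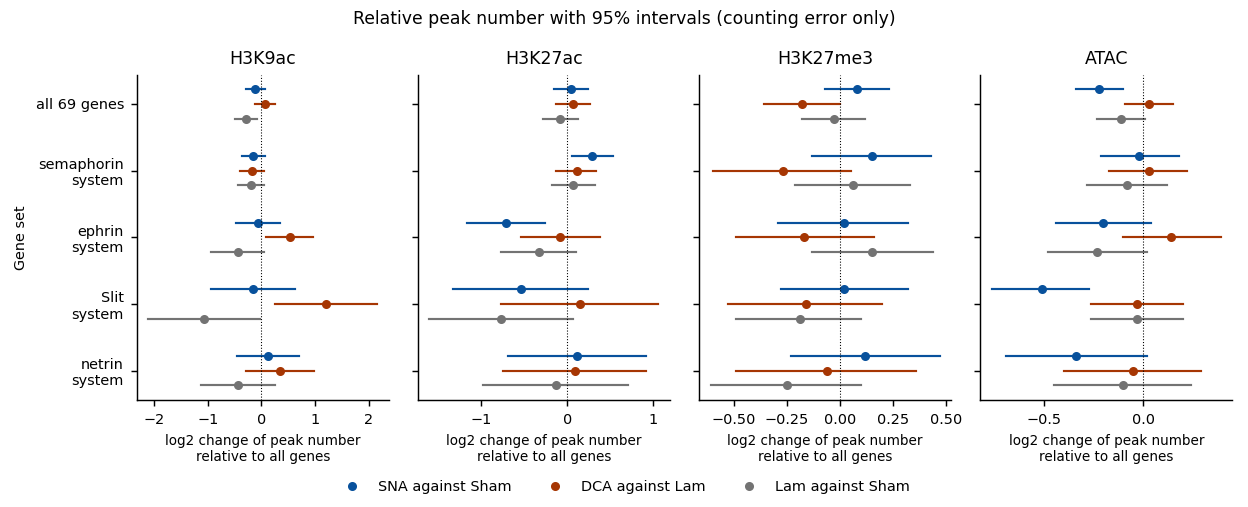
Log2 change in peak number relative to all protein-coding genes for the 69 guidance genes and for the 4 ligand and receptor systems, in 3 comparisons and 4 assays; bars are 95% counting intervals and the x ranges differ between panels. For ATAC after SNA the 69 genes lie at -0.22 and the Slit system at -0.51, both below 0, and the semaphorin system for H3K27ac after SNA lies at 0.29.

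Acetylation was counted gene by gene with the same rule. It took in only genes with at least 3 peaks in either list, so these counts describe those genes and not all 69. H3K9ac was higher after SNA at 9 of 48 genes (18.8%, against 19.0%) and lower at 1, Plxnc1 (2.08%, against 0.791%). After DCA it was higher at 24 of 49 (49.0%, against 34.5%) and lower at 0 (0.839% of all genes). The median log2 change of the counted genes, with 1 added to each number, was 0.42 against 0.42 over all genes after SNA, and 0.85 against 0.64 after DCA. H3K27ac was higher after SNA at 18 of 48 (37.5%, against 33.0%) and lower at 2, Robo1 and Sema5b (4.17%, against 2.73%), and after DCA it was lower at 9 of 47 (19.1%, against 19.5%) and higher at 0 (1.16%). With the lists of a comparison cut to equal size there were 4 higher calls in place of 24 for H3K9ac after DCA, 1 in place of 9 after SNA and 3 in place of 18 for H3K27ac after SNA. Lower calls then outnumbered higher calls after SNA in both marks. The share of all genes called under this setting was not computed, so the fall is not a result about guidance genes.

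The semaphorin, plexin and neuropilin genes held most of the H3K27ac signal. Over their 31 windows the Sham list had 206 H3K27ac peaks, the SNA list 444 and the Lam list 337, a log2 change relative to all genes of 0.29 (0.06 to 0.53) for SNA against Sham. For Lam against Sham, which shares the Sham list, it was 0.07. Nrp2, the co-receptor for Sema3c and Sema3f, and Sema6d, a transmembrane semaphorin, accounted for this value: without them, a check added after the data were seen, the other 29 windows had 170 and 299 peaks, a relative change of -0.00 (-0.27 to 0.27). Nrp2 had 20, 62, 43 and 38 H3K27ac peaks in the Sham, SNA, Lam and DCA lists, covering 16.7, 39.4, 39.2 and 23.1 kb. Sema6d had 16, 83, 49 and 27, covering 9.81 kb in Sham, 48.5 kb in SNA and 32.0 kb in Lam. Both genes were lowest in Sham and highest in SNA, with Lam between.

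Most of the added peaks were at places without a Sham peak. In Nrp2, 41 of 62 SNA peaks were absent from Sham and 1 of 20 Sham peaks was absent from SNA, and in Sema6d the counts were 66 of 83 and 2 of 16. The Lam list showed the same kind of addition, with 26 of 43 peaks absent from Sham in Nrp2 and 39 of 49 in Sema6d, although Lam involved no axotomy. The strongest H3K27ac peak in a guidance gene in the SNA list lay in the body of Nrp2 (chr1:62716586-62718092, mm10), with an enrichment of 10.7 in the authors' file and rank 140 of 75824. With Nrp2 and Sema6d left out, a check added after the data were seen, the relative change of all other guidance genes was -0.19 (-0.40 to 0.02), against 0.05 with them. H3K27ac peak numbers were also higher in SNA than in Sham at 2 of 4 counted endothelial and fibroblast markers (Col1a1, Col3a1), where 33.0% of all genes were higher. The same 2 were higher in Lam against Sham, where 24.7% of all genes were. The part of these cells in the counts was not tested.

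**Figure D3:**
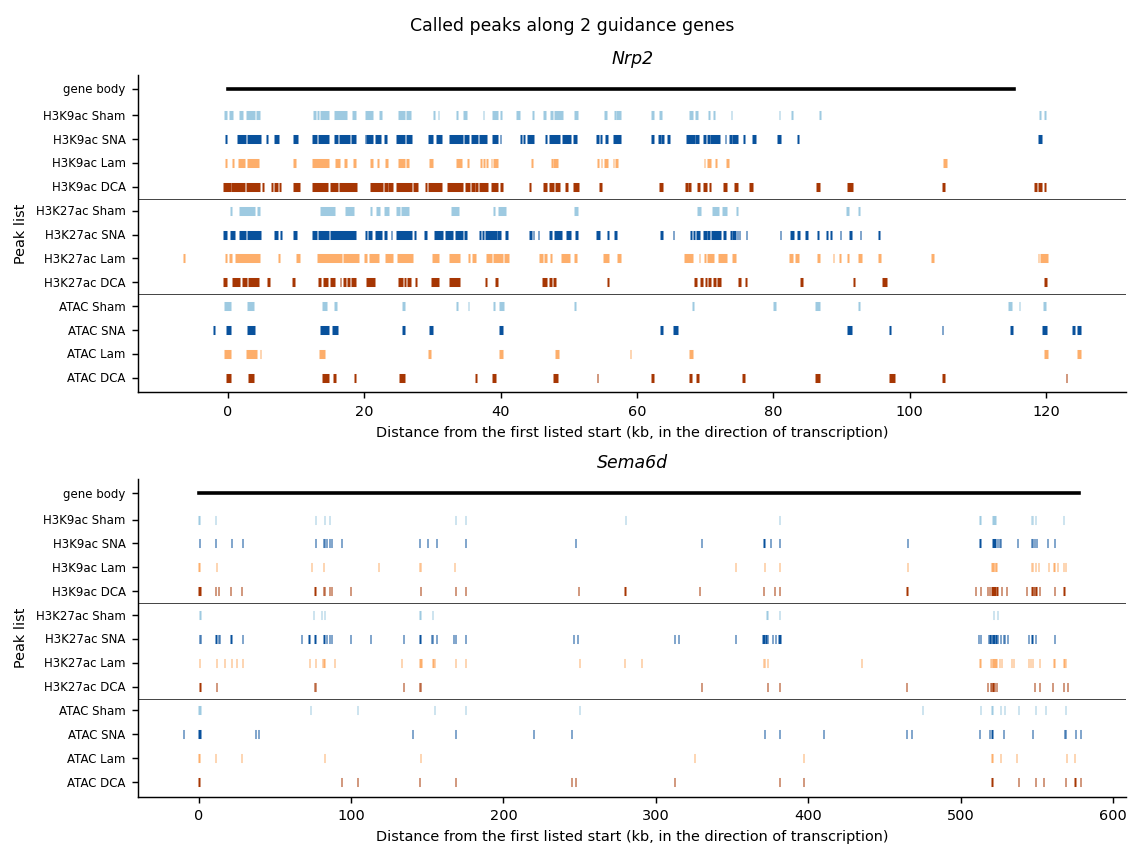
Positions of H3K9ac, H3K27ac and ATAC peaks along Nrp2 and Sema6d as distance in kb from the most upstream listed start, 1 row per list. H3K27ac peaks fill more of both genes in the SNA row (39.4 and 48.5 kb covered) than in the Sham row (16.7 and 9.81 kb), and the Lam row lies near SNA in Nrp2 at 39.2 kb.

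Other semaphorin genes and receptors varied in their order. Sema6a, a transmembrane semaphorin that binds class A plexins, had 10, 36, 22 and 12 H3K27ac peaks, and Sema4b had 12, 28, 20 and 21. Plxnd1, the receptor for Sema3e, had 23, 40, 24 and 19, and Nrp1, the co-receptor for Sema3a, had 6, 17, 10 and 6. In each of these genes the SNA list was highest, and Lam lay above DCA in all but Sema4b. Sema5a, a transmembrane semaphorin, had 3, 10, 10 and 2, high in SNA and Lam alike. Sema5b, from the same class, had 3, 0, 2 and 2, lowest in SNA.

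H3K9ac peak numbers in these genes did not move as one. Sema6d had 34, 53, 33 and 60 H3K9ac peaks in the Sham, SNA, Lam and DCA lists. Nrp2 had 42, 53, 35 and 47, and Sema6a 19, 25, 22 and 35. Both axotomies were above their own controls in these genes, by less than 2-fold in each. Sema4d, a ligand of Plxnb1, had 14, 26, 11 and 21, and Plxnd1 had 32, 27, 23 and 29, with no clear order. Sema4b had 18, 19, 17 and 22, Nrp1 9, 10, 11 and 9, and Sema5a 4, 7, 6 and 6, so DCA was below Lam in Nrp1 and equal to it in Sema5a. Sema5b had 2, 2, 0 and 6. Sema3a and Plxna4, the textbook repellent and its plexin in sensory axons, had few H3K9ac peaks. Sema3a had them only in the DCA list, where it had 2, and Plxna4 had 2, 3, 1 and 2. A peak in the body of Plxna4, of enrichment 6.41, was the strongest DCA H3K9ac peak of a guidance gene absent from Lam. The body of Sema3a held an H3K27ac peak of enrichment 12.5 in the Sham list, absent from SNA. Sema3a had 7, 5, 4 and 4 ATAC peaks, and Plxna4 68, 81, 82 and 75 with 46, 63, 74 and 29 H3K27me3 peaks.

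The ephrin and Eph receptor genes moved little in H3K27ac after SNA, when the genome gained peaks. Over their 22 windows the Sham list held 76 H3K27ac peaks and the SNA list 82, a log2 change relative to all genes of -0.71 (-1.16 to -0.26), and the ephrins alone had 30 and 27, or -0.97 (-1.72 to -0.22). In H3K9ac the same system rose from 59 peaks in Lam to 147 in DCA, a relative change of 0.53 (0.09 to 0.96). For the 14 Eph receptors, H3K9ac counts were 55, 81, 30 and 90 in the Sham, SNA, Lam and DCA lists, so that Lam was the lowest. The relative change was 0.79 (0.20 to 1.39) for DCA against Lam and -0.88 (-1.52 to -0.24) for Lam against Sham. Both values use the Lam list.

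Ephb2 showed the largest H3K9ac change of the Eph receptors. It had 11, 22, 2 and 26 peaks in the Sham, SNA, Lam and DCA lists, and 24 of the 26 DCA peaks were absent from Lam. Its promoter peak was present in Sham and DCA and absent from SNA and Lam, so the added SNA peaks lay away from the listed start. Its H3K27me3 peaks ran in the other direction, with 16, 7, 38 and 3, and both axotomies were below their controls. Epha2 had 12, 15, 17 and 8 H3K27ac peaks and was lowest in DCA. Epha4, the Eph receptor that binds ephrins of both classes, had 2, 5, 0 and 2 H3K9ac peaks with 15, 16, 20 and 8 H3K27me3 peaks, and the ligand Efnb2 had 2, 3, 4 and 6 H3K9ac peaks with 9, 7, 10 and 4 ATAC peaks. Ephb1 had the most H3K27me3 peaks of any guidance gene, 54, 82, 102 and 56, and 57, 73, 53 and 72 ATAC peaks, higher after each axotomy than in its control by less than 2-fold.

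**Figure D4:**
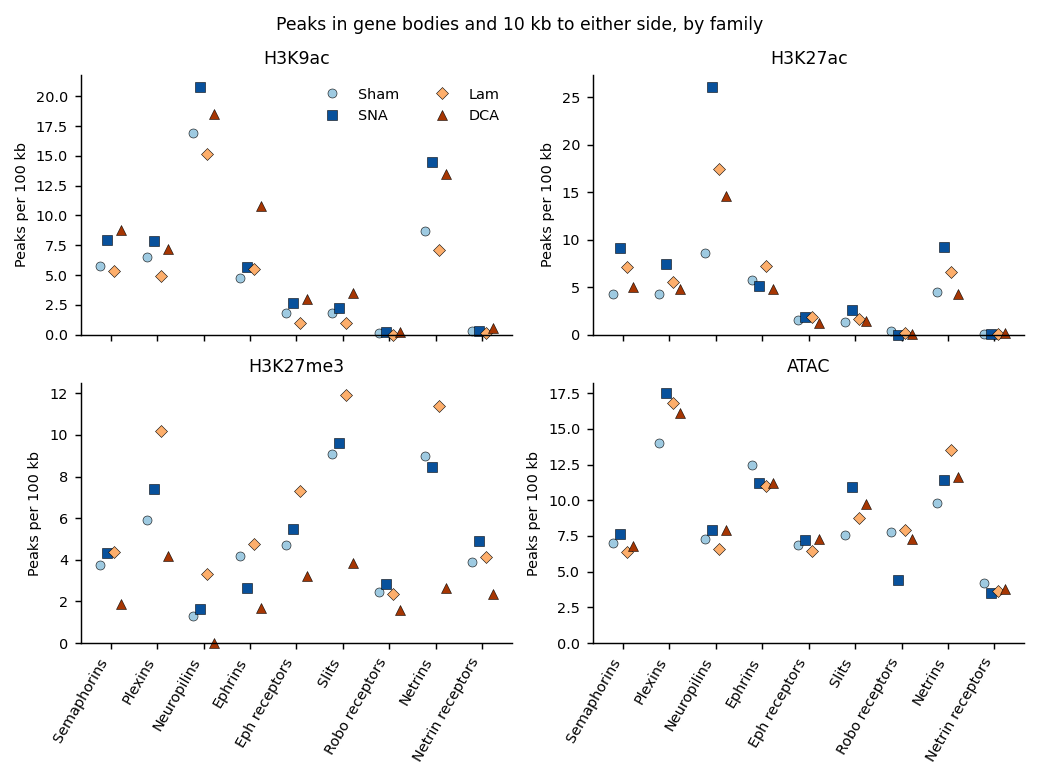
Peaks per 100 kb of gene window for the 9 families in each of the 4 operations, 1 panel per assay. Each point is a count in 1 pooled list with no error bar; Eph receptors are lowest in Lam and highest in DCA for H3K9ac (30 and 90 peaks), and Robo receptors are lowest in SNA for ATAC (117 peaks).

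The Slit and Robo system had fewer ATAC peaks after SNA, and its H3K9ac peak numbers differed between Sham, Lam and DCA. Over the 7 windows the Sham list had 292 ATAC peaks and the SNA list 239, a relative change of -0.51 (-0.76 to -0.27). The fall lay in the Robo receptors, with 207, 117, 211 and 195 ATAC peaks in the Sham, SNA, Lam and DCA lists and a relative change of -1.05 (-1.37 to -0.72) after SNA. The Slits had 85, 122, 98 and 109. Robo2 had 128, 79, 164 and 138 ATAC peaks, lowest in SNA. Robo1 had 71, 28, 38 and 43, high in Sham and lower in the other 3 lists. Of the Sham peaks, 86 of 128 in Robo2 and 58 of 71 in Robo1 were absent from SNA, while 35 of 79 SNA peaks in Robo2 were absent from Sham.

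These receptors span long gene bodies, 1555 kb for Robo2 and 1020 kb for Robo1. The 7 guidance genes of at least 500 kb had 370, 253, 327 and 341 ATAC peaks, a change after SNA of -0.61 (-0.84 to -0.38) relative to other genes of that length. In the shorter length classes the intervals included 0. Without genes of at least 500 kb, a setting added after the data were seen, the relative ATAC change of the guidance genes after SNA was -0.02 (-0.16 to 0.12). Counting only peaks whose -log10 q reached 5, the change over all 69 genes was 0.21 (-0.09 to 0.52), the opposite sign.

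Acetylation was sparse in the Robo genes and present in Slit3. Robo2 had no H3K9ac peak in any list, and H3K27ac peaks in Sham only, where it had 2. Robo1 had 7, 0, 2 and 1 H3K27ac peaks, below the Sham count in every other list. Slit3, a secreted Robo ligand, had 12, 27, 15 and 12 H3K27ac peaks, 17, 24, 11 and 35 H3K9ac peaks and 48, 67, 47 and 67 ATAC peaks, and was higher after each axotomy than in its control in H3K9ac and ATAC. In H3K9ac the whole system rose from 11 peaks in Lam to 44 in DCA, a relative change of 1.21 (0.26 to 2.16). Sham had 23, and Lam against Sham gave -1.07 (-2.11 to -0.03), and both comparisons use the Lam list, the lowest of the 4. A peak in the body of Slit3 (chr11:35369070-35369913, mm10) was the strongest H3K27ac peak in a guidance gene in the Sham list, with an enrichment of 34.5 in the authors' file and rank 34. Slit1 had 26, 45, 41 and 34 ATAC peaks, and Slit2, a repellent of commissural axons, had 11, 10, 10 and 8.

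**Figure D5:**
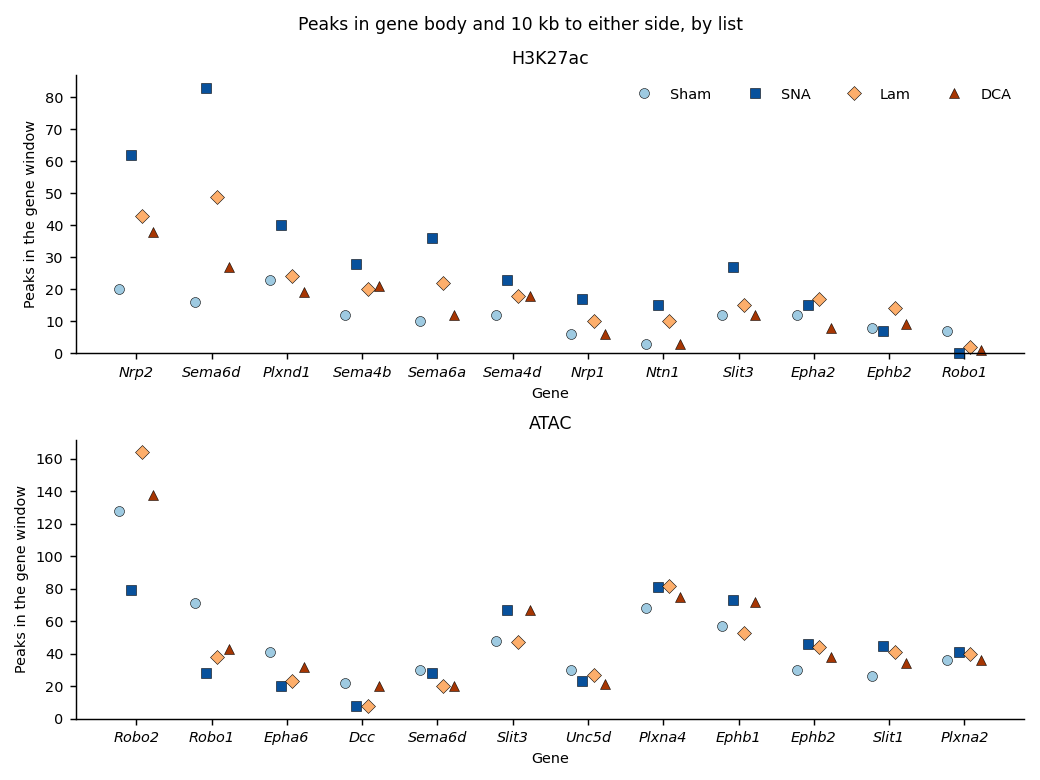
H3K27ac and ATAC peak numbers in single guidance genes in the 4 pooled lists (Sham, SNA, Lam, DCA), 12 genes per assay. Sema6d (16 to 83) and Nrp2 (20 to 62) have the widest rise from Sham to SNA in H3K27ac, and Robo2 (128 to 79) and Robo1 (71 to 28) the widest fall in ATAC.

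The netrin system divided by gene. Ntn1, the founding netrin, had 3, 15, 10 and 3 H3K27ac peaks and 13, 28, 7 and 25 H3K9ac peaks in the Sham, SNA, Lam and DCA lists. Its H3K9ac was higher after both axotomies, while its H3K27ac was higher after SNA and lower after DCA. H3K9ac was higher after both injuries at 6 of 45 guidance genes (13.3%, against 8.65% of all genes): Ephb2, Ephb4, Ephb6, Ntn1, Plxna2 and Sema4a. The start of Ntn4, a laminin-binding netrin, carried an H3K9ac peak of enrichment 8.40 in the DCA list (chr10:93640446-93642517, mm10, authors' value). Netrins together had fewer H3K27me3 peaks after DCA, 10 against 43 in Lam, a relative change of -1.07 (-2.06 to -0.08).

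Acetylation in the netrin receptors was confined to Unc5a and Unc5b. Dcc, Unc5c and Unc5d had no H3K9ac or H3K27ac peak in any list. Dcc, the attractive netrin receptor, had 22, 8, 8 and 20 ATAC peaks, low in SNA and in Lam, with 32, 34, 22 and 22 H3K27me3 peaks. Unc5d, a repulsive receptor, had 26, 44, 32 and 25 H3K27me3 peaks. Unc5b had 3, 3, 1 and 7 H3K9ac peaks, highest in DCA, where its promoter peak appeared. Unc5a had 3, 4, 1 and 6, also highest in DCA. The strongest H3K9ac peak of any guidance window in the SNA list lay in the downstream flank of Unc5b (chr10:60751930-60752822, mm10). It had an enrichment of 8.01 in the authors' file and rank 254 of 74652. This peak is outside the gene body and far from the listed start, and which gene it belongs to was not tested. Both genes had at most 2 H3K27ac peaks in any list. ATAC peaks in the 5 netrin receptors numbered 96, 80, 83 and 86, a relative change of -0.49 (-0.91 to -0.06) after SNA.

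ATAC peak number was called lower after SNA at 5 of 68 guidance genes (7.35%, against 2.81%): Dcc, Epha1, Epha6, Robo1 and Sema3c. It was higher at 3 (4.41%, against 10.6%), namely Plxna3, Plxnb1 and Sema6a, which had 12, 30, 16 and 19. Epha6 had 41, 20, 23 and 32 ATAC peaks, low in SNA and in Lam alike. After DCA it was higher at 6 of 67 (8.96%, against 5.96%) and lower at 3 (4.48%, against 4.91%). Sema5a, among the 6, had 17, 10, 11 and 22. For Dcc, Epha6 and Robo1 the Lam list was as low as or close to the SNA list, in mice without axotomy.

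The proteins that act with these receptors, a list of 50 genes for co-receptors, signalling proteins and cytoskeletal effectors, gave a comparison outside the ligand and receptor families. H3K9ac peak numbers were higher after SNA at 12 of 37 counted (against 19.0% of all genes) and lower at 0 (0.791%), with a change relative to all genes of 0.23 (0.06 to 0.40). That for the ligands and receptors was -0.11 (-0.29 to 0.06). After DCA 17 of 40 were higher (34.5% of all genes) and 2 lower (0.839%), with a relative change of 0.04 (-0.13 to 0.21). H3K27ac was higher at 14 of 42 (33.0% of all genes) and lower at 1 (2.73%) after SNA, and lower at 9 of 40 (19.5%) and higher at 0 (1.16%) after DCA, counts near those over all genes. ATAC was higher at 4 of 50 (10.6%) and lower at 2 (2.81%) after SNA, and higher at 2 (5.96%) and lower at 2 (4.91%) after DCA.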

How the data were processed

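Peak lists deposited by the authors were used, 1 for each of 4 assays and 4 operations, on mm10 per the submitters' processing notes. They pool the 24 ChIP samples and 12 ATAC samples, and the 24 input samples were not analysed here. The aligner and peak caller are not given in the sources used here. Each deposited line gives a peak's position, a score, a fold enrichment (ratio) over background and -log10 p and -log10 q values, all made by the authors. Fold values are printed for single peaks and were not used to measure change between lists. Lists filtered at a fixed q, or cut to equal size by p, were compared with each other. The share of peaks passing a given q differed between lists. Repeated ATAC lines for 1 peak were collapsed. The lists hold peaks and no read totals, so depth is unknown.

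Genes, windows and starts came from RefSeq GRCm38.p6 tables. Of 21263 starts checked, 61.0% lay within 100 bp of a Sham ATAC peak, against 6.77% with positions shifted by 10000 bp. Peaks overlapping a gene body or 10 kb around it by at least 1 bp were counted with Python 3.11.15, pandas 2.3.3 and numpy 2.4.6, and plotted with matplotlib 3.10.9. Relative changes are log2 ratios of peak numbers in the guidance genes minus those over all genes, with 95% intervals from counting statistics, and intervals of shares are Wilson intervals. Peaks are treated as independent counts, so intervals cover counting error only. Counting was checked on simulated lists for SNA against Sham, with peaks on a regular grid and 4 times as many in 200 changed genes among 3969. The rule recovered 100% of them. That change was set above the calling rule and without noise, so the check covers the counting and not the calls in these lists.

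Values in every list were given for the genes with most peaks or with the largest differences in each assay and injury comparison, for promoters changed in several assays, for genes with an H3K27me3 peak of q at most 0.05 and for 10 textbook examples. Members, gene lists and tests were chosen with earlier results of these data known. Peak numbers at some marker genes are not reported here. Alternatives covered equal list sizes, stricter q, other windows and overlaps, and settings added after the data were seen.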

Additional observations from a re-analysis of the deposited data

Results flagged for a closer look

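Several guidance genes changed in opposite directions after the 2 injuries, each by at least 3 peaks and 2-fold against its own control. With 1 pooled list per operation the difference between the injuries was not tested. For H3K27ac the change from Sham to SNA and then from Lam to DCA was 12 and -7 peaks at Ntn1, 7 and -8 at Sema5a, 5 and -3 at Sema3c, 4 and -6 at Sema6b, 4 and -3 at Efnb1, and 3 and -4 at Sema3e. These were 6 of 44 guidance genes counted in both comparisons (13.6%), against 8.98% of all genes. Plxnc1, the receptor of Sema7a, changed by -3 H3K9ac peaks after SNA and 6 after DCA, 1 of 45 (2.22%, against 0.239%). Dcc changed by -14 ATAC peaks after SNA and 12 after DCA, 1 of 66 (1.52%, against 0.226%).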

How the results depend on the processing

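No paired analysis was possible because each list pools its replicates, and leaving out a replicate could not be run for the same reason. Of 186 recomputed values for 49 results, 126 kept direction and size, 57 moved and 3 reversed. The cause of each change below was not tested, apart from the choice of peaks, genes or overlap that makes the setting. A wider reading of the symbol rule moved none of the 12 values it gave.

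With only peaks of -log10 q at least 5, the relative peak number reversed to 0.73 for H3K9ac in Lam against Sham and to 0.21 for ATAC in SNA against Sham, and moved to 1.14 (SNA) and 0.94 (DCA) for H3K9ac and to -0.19 (DCA) and 0.09 (Lam against Sham) for ATAC. The H3K9ac values against Sham rest on 5 guidance peaks in the Sham list. H3K27me3 gave no value at this cut. With -log10 q at least 1.3, the share of peaks absent from the control list was 66.5% (SNA), 68.5% (DCA) and 50.9% (Lam against Sham) for H3K9ac, 62.4% and 61.7% for ATAC after SNA and DCA, and 100% for H3K27me3 in Lam, on 1 peak. Promoter gains after SNA were 13 for H3K9ac and 5 for ATAC, promoter losses after DCA 1 and 2, and after SNA higher and lower numbers were 26 and 0 for H3K9ac and 6 and 3 for ATAC. Under the same setting 0 starts lost H3K27me3 after SNA (0.189% of all genes).

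With lists cut to equal size, H3K9ac promoter losses were 7 after SNA (11.9%, against 8.20% of all genes) and 3 after DCA (5.08%, against 1.84%). H3K27ac promoter gains and losses after SNA were 5 (8.47%, against 10.9%) and 6 (10.2%, against 4.05%). H3K27ac gains after DCA were 1 (1.69%, against 4.44%) and ATAC losses after SNA 2 (3.39%, against 3.45%). Higher and lower numbers were 1 and 5 (SNA) and 4 and 3 (DCA) for H3K9ac, 3 and 7 (SNA) and 3 and 1 (DCA) for H3K27ac, and 3 genes were higher for ATAC after DCA. Peak-number calls under the alternative settings were not counted over all genes.

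With peaks within 5 kb of a start, 2 starts gained H3K9ac (3.39%, against 5.08% of all genes) and 4 lost H3K27ac (6.78%, against 3.16%) after SNA. For ATAC 0 gained (4.37% of all genes) and 2 lost a peak (3.39%, against 3.27%) after SNA, and 0 gained one after DCA (4.36% of all genes). Over gene bodies alone, 1 gene was higher in H3K27ac after DCA. With reciprocal overlap of 50%, the share absent from the control for SNA, DCA and Lam against Sham was 70.5%, 87.2% and 73.8% for H3K9ac, 86.3%, 64.8% and 77.3% for H3K27ac, 94.0%, 91.5% and 91.8% for H3K27me3, and 70.7%, 69.8% and 72.6% for ATAC.

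Settings added after the data were seen gave a relative change after SNA of -0.19 for H3K27ac without Nrp2 and Sema6d, or -0.00 in place of 0.29 over the semaphorin, plexin and neuropilin genes, and -0.02 for ATAC without genes of 500 kb and more. With either gene end taken as a start for all 69 genes, losses were 1 for H3K9ac after DCA, 4 for H3K27ac after SNA, and 3 and 0 for ATAC after SNA and DCA. The share of all genes was not computed under this last setting.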

Other observations

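Merged across the 4 lists, the guidance windows held 836 H3K9ac, 723 H3K27ac and 2485 ATAC regions. A peak was present in all 4 lists at 133 of the H3K9ac regions (15.9%, against 19.9% over all genes), 100 of the H3K27ac regions (13.8%, against 14.7%) and 225 of the ATAC regions (9.05%, against 12.2%). H3K9ac peaks in guidance genes overlapped an ATAC peak of the same operation in 38.3%, 36.3%, 41.8% and 38.6% of cases in the Sham, SNA, Lam and DCA lists, where peaks over all genes gave 49.8%, 45.3%, 49.8% and 41.4%. After DCA 64.5% of H3K9ac peaks in guidance genes (interval 60.8 to 68.1) had no counterpart in Lam, against 60.7% over all genes. Of Sham ATAC peaks in guidance genes, 57.8% (54.8 to 60.7) had none in SNA, against 49.4%.

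The H3K27me3 change from Lam to DCA differed between length classes, with no steady trend. Guidance genes under 50 kb had 123 H3K27me3 peaks in Lam and 18 in DCA, a log2 change of -1.58 (-2.29 to -0.87) relative to other genes of that length, and those of 50 to 200 kb had 236 and 63, or -0.71 (-1.11 to -0.31). For the 11 genes of 200 to 500 kb the value was 0.05 (-0.25 to 0.34), and for the 7 of 500 kb and more it was -0.19 (-0.49 to 0.10). The difference between classes was not tested. Guidance genes were long, with a median body of 46.3 kb against 17.2 kb over all genes.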
